A study of Mus musculus with 6 samples.

Results

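The genes described here are the members of 6 families of membrane transporters for sugars and metal ions: the facilitative sugar transporters (Slc2a, GLUT), the sodium-coupled transporters of sugars and other small solutes (Slc5a), the proton-coupled metal ion transporters (Slc11a, NRAMP), the zinc exporters (Slc30a, ZnT), the zinc importers (Slc39a, ZIP) and the iron exporter ferroportin (Slc40a1). Within these families genes were taken by symbol alone, and 50 of the 22007 gene symbols in the data belonged to them. The families themselves were chosen with earlier results of these data known. Cornea RNA was sequenced from male C57BL/6J mice in 2 groups. The OFBI group had been exposed awake to a single open-field blast from 350 g of the explosive Composition C-4 set off 3 m away, and its corneas carry a 12-month label. The control group is labelled Naive and carries the same 12-month label, strain, sex and batch number. Each group had 3 libraries, each a pool of corneas. The number of corneas per pool is not given in the sources used here, and p-values below measure the spread between these pools.

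The cornea has no blood vessels, and glucose reaches its epithelium mainly from the aqueous humour, so GLUT proteins and sodium-coupled carriers matter for its energy supply. Zinc is held at low free levels in the cytosol by ZIP proteins that bring it in, ZnT proteins that move it out or into vesicles, and metallothioneins that bind it. Iron enters the cytosol through Slc11a2, is stored in ferritin, and leaves cells through ferroportin, the only known cellular iron exporter. The Slc5a name does not always mean a sugar: Slc5a3 carries inositol, Slc5a5 iodide, Slc5a6 biotin and pantothenate, Slc5a7 choline and Slc5a8 short monocarboxylates such as lactate and butyrate.

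The libraries differed widely in depth, with 1173472 to 3410476 counts in the OFBI group and 41971752 to 47809779 in the Naive group, a ratio of summed depth of 16.7. Levels are given as CPM, the counts of a gene relative to the total of its library, scaled with TMM factors of 0.916 to 1.08. About 4 counts appear to stand for 1 sequenced fragment, so 3 fragments, or 12 counts over the summed OFBI libraries, were taken as the floor of detection, which equals 1.62 CPM. This floor covers counting error only. The transporters held 0.102% to 0.129% of the counts of the OFBI libraries and 0.167% to 0.191% of those of the Naive libraries. Summed markers of corneal epithelium stood at 58117 to 76392 CPM in OFBI and 29424 to 30506 CPM in Naive, with 4 of 9 tested genes higher and 2 lower. Summed keratocyte markers stood at 3615 to 5546 CPM and 1207 to 1542 CPM. Of 9 tested, the collagen genes Col1a1, Col5a1 and Col6a1 were higher and Dcn and Ptgds lower, and the median log2 fold change was -0.77. Summed endothelial markers stood at 1340 to 1390 CPM and 1378 to 1401 CPM, with 2 of 7 lower. The keratocyte marker Kera was at 0 in OFBI replicates 1 and 3. Markers of other tissues also differed: 16 hepatocyte genes summed to 163, 201 and 1069 CPM in OFBI replicates 1 to 3 and to 31.0 to 42.7 CPM in Naive, with 5 of 6 tested higher, and the lymphocyte list to 28.8 to 216 CPM and 4.86 to 6.52 CPM, with 6 of 7 tested higher. Other lists were lower in sum: pigment cell genes of iris and ciliary body at 134, 174 and 39.3 CPM in OFBI and 214 to 224 CPM in Naive, with 2 of 8 tested lower and Tyr and Slc45a2 at 0 in OFBI, and erythroid genes at 19.5, 27.5 and 13.1 CPM and 61.5 to 76.4 CPM, with 1 of 5 lower. Muscle genes summed to 501 to 722 CPM and 624 to 645 CPM, with 5 of 13 higher and 1 lower. The part of these lists in the transporter results was not tested, and in bulk libraries fewer cells of a type and less RNA per cell cannot be told apart.

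Of the 50 transporters, 30 had a Naive mean above the floor, 15 lay at or under it, and 5 had no count in any library. The 30 above the floor were 6 of 12 Slc2a genes, 5 of 11 Slc5a genes, both Slc11a genes, 6 of 10 Slc30a genes and 11 of 14 Slc39a genes. Ferroportin was under it. The gene just inside the floor was Slc2a10 at 2.05 CPM, and the gene just under it was Slc39a12 at 1.48 CPM.

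**Figure D1:**
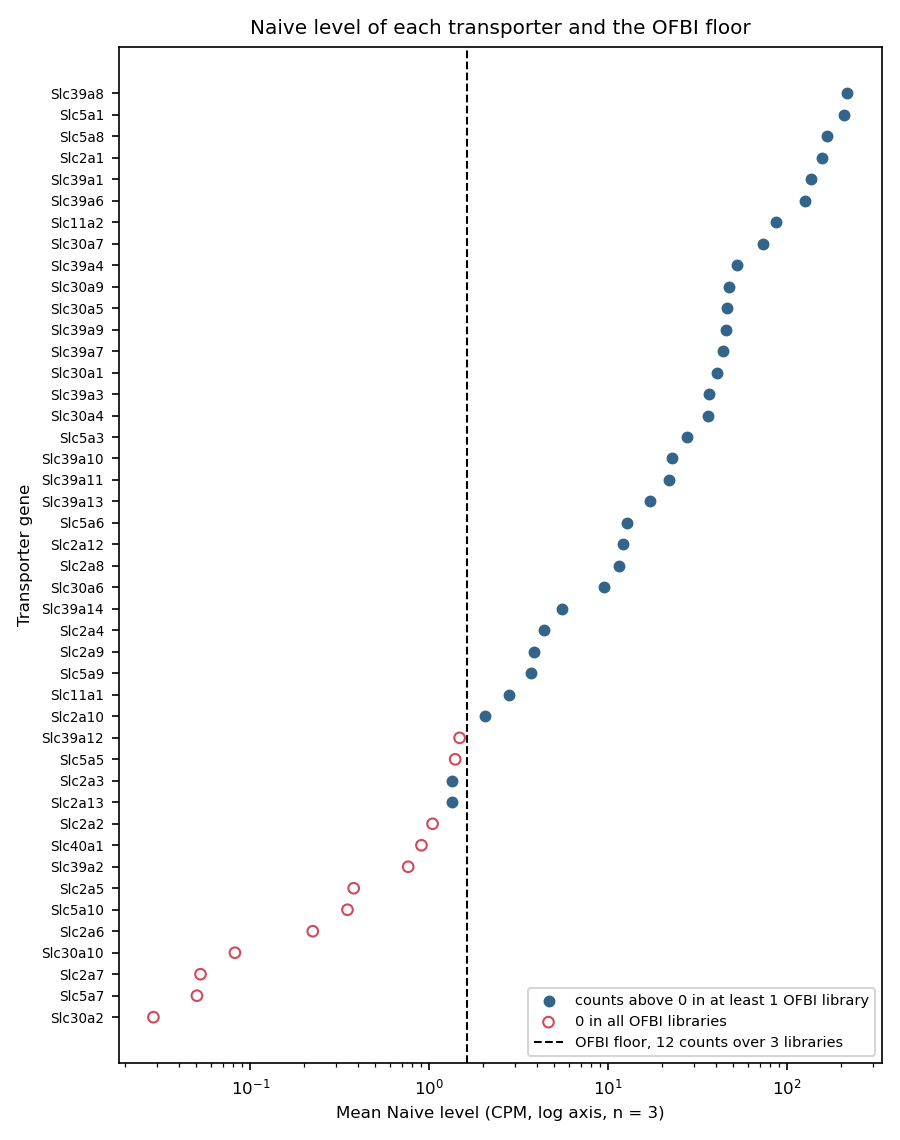
Mean level in Naive cornea, on a logarithmic CPM axis (n = 3 libraries), of each transporter with a count in at least 1 Naive library. The dashed line is the OFBI floor of 1.62 CPM. Open points are genes at 0 in all 3 OFBI libraries, and all of them lie to the left of the line.

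In the Naive cornea the zinc importer Slc39a1 had the highest level per kilobase of transcript, 57.8 CPM per kb. It was followed by the sodium-glucose cotransporter Slc5a1 at 50.5, the glucose transporter Slc2a1 at 44.8, Slc5a8 at 31.3, the zinc importer Slc39a6 at 31.0 and the zinc and manganese importer Slc39a8 at 28.2 CPM per kb. The SDs over 3 libraries were 6.08, 1.45, 5.10, 2.87, 1.52 and 2.15 CPM per kb in the same order, so neighbours among these 6 differed by less than the sum of their SDs, apart from Slc2a1 and Slc5a8. Slc39a4, Slc39a7 and the iron importer Slc11a2 came next, at 16.9, 16.8 and 13.7 CPM per kb. Among the zinc exporters Slc30a1, which works at the plasma membrane, was highest at 7.70 CPM per kb. The other 20 genes above the floor ranged from 0.523 to 9.05 CPM per kb.

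Between OFBI and Naive, 2 of the 30 transporters above the floor were called lower at an adjusted p below 0.05 with edgeR's quasi-likelihood test over all 13941 tested genes. These were Slc5a8 and Slc39a8. None was called higher, 28 did not pass, and edgeR found 0 higher at an unadjusted p below 0.05. With transporters under the floor included, DESeq2 over 45 and limma-voom over 37 also called 0 higher, with 2 and 0 at an unadjusted p below 0.05. DESeq2 called 5 of the 30 lower, adding Slc30a6, Slc30a7 and Slc39a4, and limma-voom called 4, adding Slc30a6 and Slc30a7. Over all genes, DESeq2 called 1798 of 16934 lower and limma-voom 1248 of 13941. The background of these tools among genes above the floor alone was not counted. With edgeR, 8.36% of all tested genes above the floor were called lower and 8.42% higher. Over all tested genes the edgeR shares were 10.4% and 8.41%, so its 2 of 30 is not more than the background. At an unadjusted p below 0.05 in either direction there were 7 of 30, beside 31.2% of all such genes. The log2 fold change was below 0 for 21 transporters and above 0 for 9. Its median was -0.53, beside -0.20 for all tested genes above the floor. In 12 of the 30, every OFBI library was lower than every Naive library, beside 29.3% of all genes. No transporter was higher in every OFBI library, beside 17.1%. The 12 were Slc2a1, Slc2a12, Slc5a1, Slc5a3, Slc5a6, Slc5a8, Slc30a6, Slc30a7, Slc39a4, Slc39a8, Slc39a10 and Slc39a13.

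**Figure D2:**
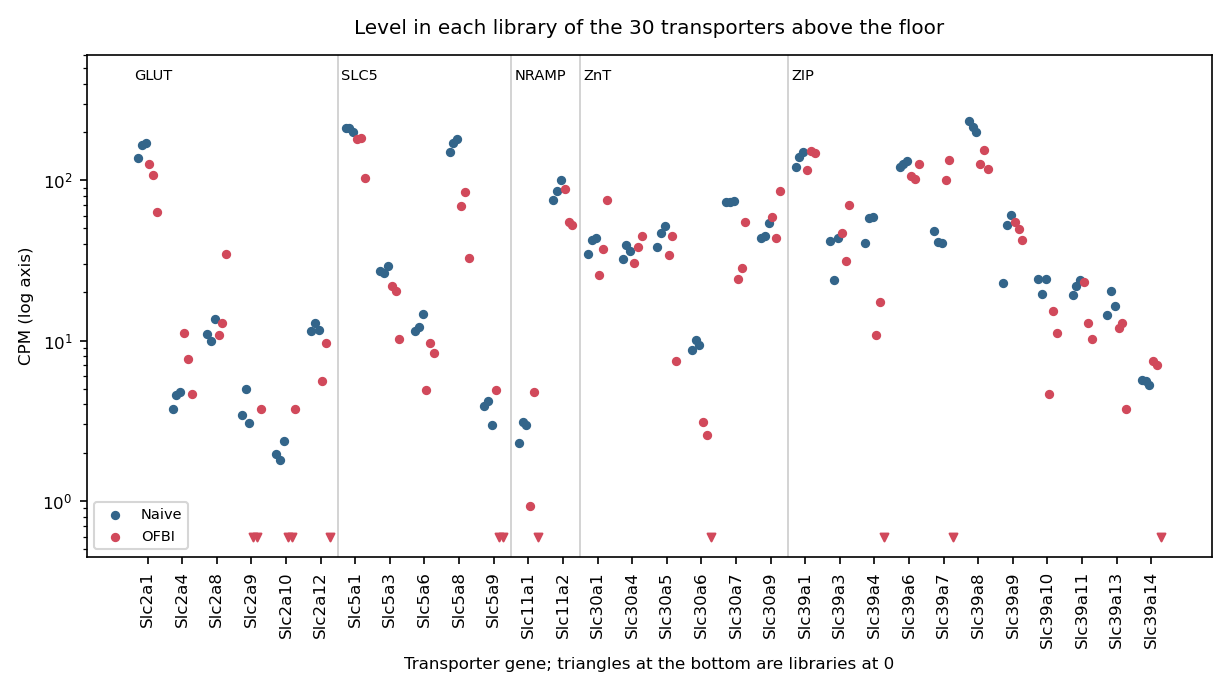
Level in each library of the 30 transporters above the floor, by family, in CPM on a logarithmic axis. Blue points are the 3 Naive and red points the 3 OFBI libraries of a gene, left to right by replicate number, and triangles at the bottom mark OFBI libraries at 0. Slc5a8 shows red points well below blue, and Slc39a1 shows them intermixed.

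Slc5a8 lies on the plus strand at chr10:88885992-88929515 (GRCm38). Its level was 68.6, 84.8 and 32.7 CPM in OFBI replicates 1, 2 and 3, from 222, 265 and 35 counts. In the Naive replicates it was 150, 171 and 180 CPM, from 7581, 7915 and 8151 counts. The groups did not overlap, and the lowest Naive value was above the highest OFBI value by more than the Naive spread. The means were 62.1 ± 26.7 CPM and 167 ± 15.3 CPM (SD, n = 3). On the log2 scale OFBI differed from Naive by -1.39 (SE 0.31, edgeR adjusted p = 0.0276). The adjusted p was 0.067 without OFBI replicate 1 and 0.0988 to 0.117 without 1 of the Naive replicates, and with a trend on GC content and length removed the change was -0.70 (SE 0.19) with an adjusted p of 0.0649.

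Slc5a1, the SGLT1 cotransporter that takes up glucose and galactose with sodium, is the nearest relative by level. It stood at 182, 184 and 103 CPM in OFBI and 211, 210 and 200 CPM in Naive. The groups did not overlap, with OFBI replicate 3 the lowest by far, and the change of -0.40 on the log2 scale (SE 0.23) did not pass the edgeR test (adjusted p = 0.278). As a share of the summed counts of Slc5a1 and Slc5a8, Slc5a8 made up 27.4%, 31.5% and 24.1% in OFBI and 41.5%, 44.8% and 47.3% in Naive. These shares do not depend on the scaling between libraries and did not overlap. The pair was chosen after its values were seen, so they are a description with no test.

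Slc2a1 (GLUT1), the basal glucose transporter of most cells, was at 126, 108 and 63.6 CPM in OFBI and 137, 166 and 169 CPM in Naive. All 3 OFBI values were below the Naive ones, and the change of -0.65 on the log2 scale (SE 0.25) did not pass (edgeR adjusted p = 0.121). Slc2a8 (GLUT8), an intracellular sugar transporter, was at 10.8, 12.8 and 34.6 CPM in OFBI and 11, 9.96 and 13.6 CPM in Naive. Only OFBI replicate 3, from 37 counts, stood above the Naive range, and the change of 0.69 (SE 0.51) did not pass (edgeR adjusted p = 0.391). Slc2a12 (GLUT12) was at 5.56, 9.60 and 0 CPM in OFBI and 11.6, 12.9 and 11.7 CPM in Naive. Its change of -1.12 (SE 0.79, edgeR adjusted p = 0.374) did not pass either. The vitamin carrier Slc5a6 was at 4.95, 9.60 and 8.42 CPM in OFBI and 11.4, 12.1 and 14.7 CPM in Naive, again without overlap, with a change of -0.75 (SE 0.43, edgeR adjusted p = 0.275). The 5 remaining sugar and sodium-coupled genes above the floor, Slc2a4, Slc2a9, Slc2a10, Slc5a3 and Slc5a9, had log2 fold changes from -2.34 to 0.88, and none passed. The summed Slc2a level was 137 ± 21.5 CPM in OFBI and 195 ± 20.1 CPM in Naive, and the summed Slc5a level 245 ± 79.1 and 420 ± 13.1 CPM (SD, n = 3 each). Slc2a1 held 79.4% to 81.2% of the Slc2a counts in Naive and 55.7% to 80.3% in OFBI. Slc5a1 and Slc5a8 together held most of the Slc5a counts in every library, so both sums largely repeat these genes.

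The bases before the start of Slc5a8 and Slc2a1 are shown because both genes were lower in every OFBI library, only the first passed the test, and both hold the core of a hypoxia response element, the motif that hypoxia-inducible factors bind. The core was searched as ACGTG or GCGTG on both strands and is in capitals. It occurred in 38.6% of 32851 RefSeq promoter windows of 250 bases and in 45.7% of the 46 windows of the transporters, so these letters are common in both. The Slc5a8 window is chr10:88885742-88885991, plus strand, with the core 175 bases before the start. The Slc2a1 window is chr4:119108495-119108710, plus strand, with a core on the opposite strand 61 bases before the RefSeq start. Another core, on the same strand 36 bases before that start, runs past the end of the printed bases and is not in capitals. Both are RefSeq sequences of GRCm38.p6, cut to bases outside annotated exons.
Slc5a8: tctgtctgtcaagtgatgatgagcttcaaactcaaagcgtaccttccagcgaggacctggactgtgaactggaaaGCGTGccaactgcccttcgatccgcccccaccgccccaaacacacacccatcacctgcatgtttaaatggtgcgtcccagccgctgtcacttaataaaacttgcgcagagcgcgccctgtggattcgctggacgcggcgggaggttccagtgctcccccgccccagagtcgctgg
Slc2a1: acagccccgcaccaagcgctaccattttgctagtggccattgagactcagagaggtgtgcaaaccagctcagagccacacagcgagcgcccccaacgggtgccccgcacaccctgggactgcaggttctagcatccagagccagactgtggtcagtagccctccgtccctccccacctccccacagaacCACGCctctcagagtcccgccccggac
A match is a description of the letters only, and no binding was measured here.

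Among the zinc importers, Slc39a8 (ZIP8) at chr3:135825279-135888572 on the plus strand was called lower. Its level was 126, 155 and 118 CPM in OFBI and 233, 215 and 201 CPM in Naive, from 407, 485 and 126 counts and from 11818, 9980 and 9107 counts. The groups did not overlap. The means were 133 ± 19.7 and 216 ± 16.5 CPM (SD, n = 3), and on the log2 scale OFBI differed by -0.70 (SE 0.16, edgeR adjusted p = 0.0276). Slc39a8 has a GC content of 39.5%, the lowest of the 30, and with the trend on GC content and length removed its change was 0.24 (SE 0.26, edgeR adjusted p = 0.59). The adjusted p was 0.0662 without OFBI replicate 1, 0.106 to 0.145 without 1 of the Naive replicates and 0.0591 with all libraries thinned to the same depth.

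Slc39a1 and Slc39a6 are the other zinc importers with the highest levels per kilobase. Slc39a1 (ZIP1) was at 116, 153 and 147 CPM in OFBI and 121, 139 and 149 CPM in Naive, and the groups overlapped. Its log2 fold change of 0.02 had a 95% interval of -0.37 to 0.41 (SE 0.17, edgeR adjusted p = 0.949). Slc39a6 (ZIP6) was at 106, 102 and 125 CPM in OFBI and 120, 126 and 132 CPM in Naive, overlapping, with a change of -0.19 (SE 0.15, edgeR adjusted p = 0.413). Of the summed counts of Slc39a1, Slc39a6 and Slc39a8, Slc39a8 made up 36.2%, 37.8% and 30.2% in OFBI and 49.2%, 44.8% and 41.6% in Naive. These 3 genes were also chosen after their values were seen, and the shares carry no test. With the GC and length trend removed the 3 changes were close to each other, at 0.43 (SE 0.31) for Slc39a1, 0.42 (SE 0.34) for Slc39a6 and 0.24 (SE 0.26) for Slc39a8, none past the edgeR threshold.

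**Figure D3:**
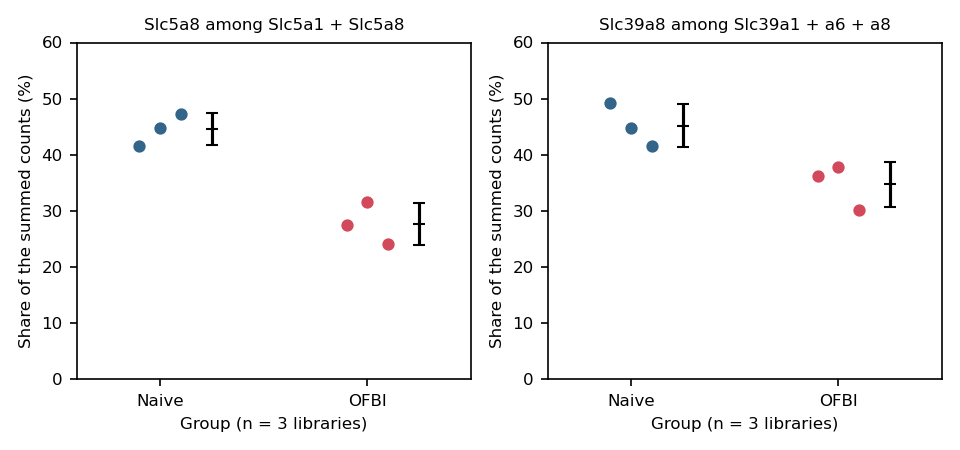
Share of Slc5a8 in the counts of Slc5a1 plus Slc5a8 (left) and of Slc39a8 in the counts of Slc39a1, Slc39a6 and Slc39a8 (right), in percent. Points are libraries and bars the mean ± SD (n = 3). The Slc5a8 share averaged 27.7% in OFBI and 44.5% in Naive, the Slc39a8 share 34.7% and 45.2%, and neither pair of groups overlapped.

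Of the other zinc transporters, Slc39a4, Slc39a7, Slc39a10 and Slc30a6 are named here after their values were seen. Slc39a4 (ZIP4), the importer that takes up dietary zinc in the gut, was at 10.8, 17.3 and 0 CPM in OFBI and 40.6, 57.8 and 59.0 CPM in Naive. The groups were far apart, but the OFBI values came from 35, 54 and 0 counts, and the change of -2.32 (SE 0.69) did not pass (edgeR adjusted p = 0.0568). It passed without OFBI replicate 3, at -1.91 and an adjusted p of 0.00922. With the GC and length trend removed its change was -2.45 (SE 0.68) and did not pass (edgeR adjusted p = 0.0656). Its GC content is 56.9%. Slc39a10 (ZIP10) was at 4.64, 15.4 and 11.2 CPM in OFBI and 24.1, 19.4 and 24.2 CPM in Naive, and its change of -1.13 (SE 0.46) did not pass (edgeR adjusted p = 0.138).

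Slc39a7 (ZIP7), which releases zinc from the endoplasmic reticulum and Golgi, stood apart between OFBI libraries. It was at 99.9, 134 and 0 CPM in OFBI, from 323, 418 and 0 counts, and at 48.5, 41.2 and 40.7 CPM in Naive. At the level of the other 2 OFBI libraries, OFBI replicate 3 would have held 124.6 counts, and it held 0. The change was 0.89 (SE 0.94, edgeR adjusted p = 0.561) with all libraries and 1.42 (SE 0.18, adjusted p = 0.00606) without OFBI replicate 3. Its exons share 80.7% of their bases with Gm20427 on the same strand, which was not analysed here, so the assignment of reads between the 2 is uncertain. In OFBI replicate 3, 7 of the 30 transporters above the floor were at 0, beside 2 in OFBI replicate 1 and 3 in OFBI replicate 2.

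Among the zinc exporters, Slc30a7 (ZnT7), which loads zinc into the Golgi, was at 24.1, 28.5 and 55.2 CPM in OFBI and 73.3, 73.2 and 74.1 CPM in Naive. The groups did not overlap, and the change of -1.08 (SE 0.31) missed the threshold (edgeR adjusted p = 0.0524). It passed without OFBI replicate 3, at -1.49 and an adjusted p of 0.00392, while with the GC and length trend removed its change was -0.34 (SE 0.50) with an adjusted p of 0.699. Part of its exons, 10.5% and 5.7%, is shared with 2 pseudogenes on the opposite strand, and the strand setting of the counting is not given in the sources used here. Slc30a6 (ZnT6), another exporter of the secretory pathway, was at 3.09, 2.56 and 0 CPM in OFBI and 8.75, 10.1 and 9.43 CPM in Naive, a change of -2.12 (SE 0.73, edgeR adjusted p = 0.0879). Slc30a1 (ZnT1) was at 25.7, 37.5 and 75.8 CPM in OFBI and 34.9, 42.3 and 43.9 CPM in Naive, so the OFBI values lay on both sides of the Naive range. Its change was 0.15 (SE 0.39, edgeR adjusted p = 0.822). Slc30a4 (ZnT4) was at 30.6, 38.4 and 44.9 CPM in OFBI and 32.2, 39.3 and 36.1 CPM in Naive, a change of 0.07 (SE 0.23, edgeR adjusted p = 0.864). The signs of Slc30a1, Slc30a4 and Slc39a1 flipped when libraries were scaled by size only. The summed Slc30a level was 214 ± 48.4 CPM in OFBI and 252 ± 19.5 CPM in Naive, and the summed Slc39a level 610 ± 79.5 and 726 ± 32.9 CPM.

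**Figure D4:**
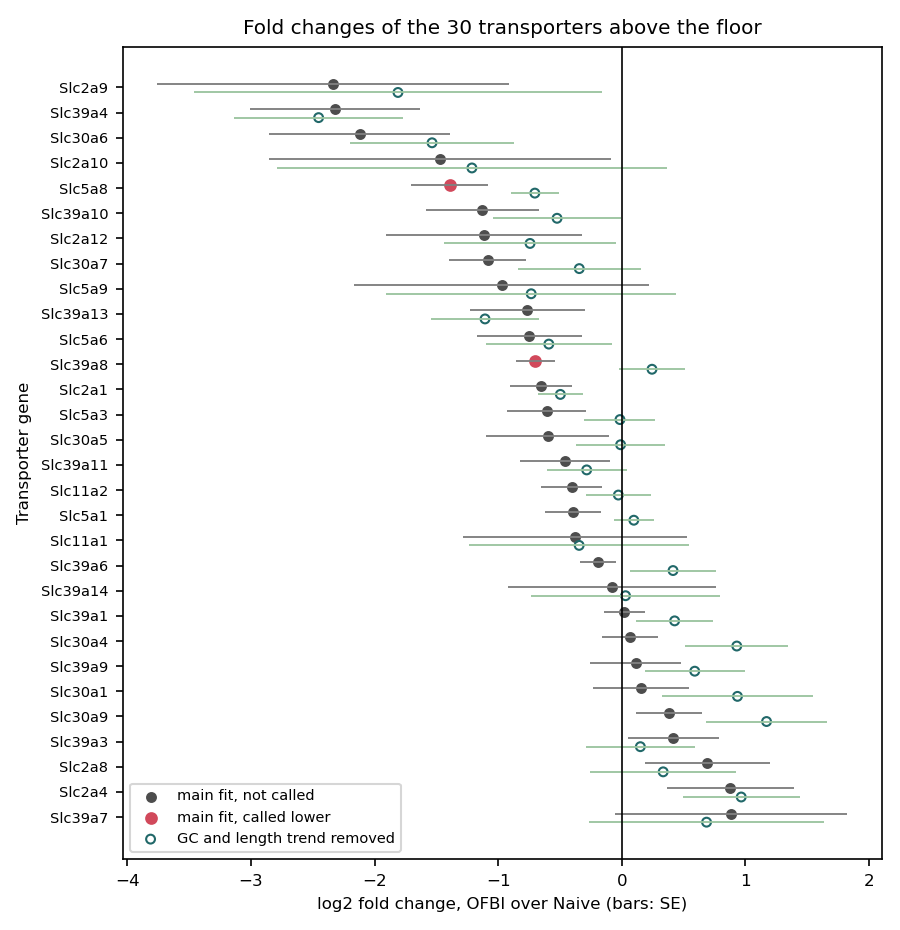
Log2 fold changes of OFBI over Naive for the 30 transporters above the floor, with bars of 1 SE. Filled points are the edgeR fit, with Slc5a8 and Slc39a8 in red as the genes called lower, and open green points are the fit with the trend on GC content and length removed. The green point of Slc39a8 lies at 0.24 and that of Slc5a8 at -0.70.

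Slc39a8 and Slc30a1 are shown next because the first was called lower and the second was not. Both have a RefSeq window with the core of a metal response element, the motif bound by the zinc sensor Mtf1. The core was searched as TGCACNC or TGCGCNC on both strands, is in capitals, and can share bases with the hypoxia core. It occurred in 21.4% of all RefSeq promoter windows and in 28.3% of those of the transporters, 13 of 46. The Slc39a8 window is chr3:135825532-135825653, plus strand, before the second RefSeq start and inside the gene as annotated, with the core on the opposite strand 19 bases before that start. The window before its first RefSeq start held no such core. The Slc30a1 window is chr1:191906531-191906766, plus strand, with the core on the opposite strand 43 bases before the start. Both are RefSeq sequences of GRCm38.p6, cut to bases outside annotated exons.
Slc39a8: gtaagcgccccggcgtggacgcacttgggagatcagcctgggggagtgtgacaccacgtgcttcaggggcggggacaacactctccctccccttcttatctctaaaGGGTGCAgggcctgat
Slc30a1: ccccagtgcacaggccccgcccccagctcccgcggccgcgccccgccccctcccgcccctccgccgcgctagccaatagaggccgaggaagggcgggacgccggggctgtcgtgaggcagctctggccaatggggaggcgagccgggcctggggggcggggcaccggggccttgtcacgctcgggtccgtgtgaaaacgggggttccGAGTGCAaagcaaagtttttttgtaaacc
The RefSeq promoter table held 39 of the 50 transporters. A GC box, GGGCGG on either strand, was in 54.3% of their windows and in 32.7% of all windows, and TATAAA in 8.7% and 12.4%.

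The iron importer Slc11a2 (DMT1), which also carries manganese, was at 87.8, 54.7 and 52.4 CPM in OFBI and 74.8, 85.3 and 100.3 CPM in Naive. The groups overlapped, and the change of -0.40 (SE 0.25) did not pass (edgeR adjusted p = 0.304). Slc11a1 (NRAMP1), which pumps metal ions out of the phagosomes of macrophages, was at 0.927, 4.80 and 0 CPM in OFBI, from 3, 15 and 0 counts, and at 2.29, 3.13 and 2.97 CPM in Naive. Its change of -0.38 (SE 0.91, edgeR adjusted p = 0.812) has a wide error at these counts. Ferroportin (Slc40a1) was at 0 in all OFBI libraries and at 0.652, 0.539 and 1.52 CPM in Naive, from 33, 25 and 69 counts. The groups did not overlap, and the gene did not pass (edgeR adjusted p = 0.0718). Its Naive level is under the floor, so no fold is given.

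The OFBI depth limits the other transporters under the floor in the same way. Of the 15, 12 were at 0 in all OFBI libraries, and 7 were abundant enough in Naive to be tested. The edgeR test called 4 of those 7 lower: Slc2a2 (GLUT2), the glucose transporter of liver and pancreatic beta cells, the iodide transporter Slc5a5, and the zinc importers Slc39a2 and Slc39a12. Their Naive levels were 1.04, 1.39, 0.762 and 1.48 CPM, from 36 to 68, 57 to 74, 25 to 54 and 38 to 95 counts per library. All 4 had 0 counts in every OFBI library. The edgeR adjusted p was 0.0412 for Slc2a2, 0.0279 for Slc5a5, 0.0493 for Slc39a2 and 0.0454 for Slc39a12, and with DESeq2 it was 0.153, 0.062, 0.271 and 0.0768. With limma-voom it was 0.0621, 0.0252, 0.121 and 0.0407, and with the GC and length trend removed Slc5a5 passed (0.0485) and the other 3 did not. Since 12 counts over the OFBI group equal 1.62 CPM, more than any of these Naive levels, no fold is given. They passed the filter on low counts only through the Naive group, where they are higher, and 27.9% of all tested genes at or under the floor were called lower, so nothing is read from these 4 calls. Counted with them, 6 of 37 tested transporters were called lower, beside 10.4% of all tested genes.

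Slc2a13 and Slc2a3 lay under the floor with counts in OFBI, 7, 4 and 4 for the first and 4, 4 and 0 for the second, and did not pass. Slc39a5, a zinc importer of gut and pancreas, had 4 counts in OFBI replicate 3 and no other count. The 7 untested genes other than Slc39a5 (Slc2a5, Slc2a6, Slc2a7, Slc5a7, Slc5a10, Slc30a2 and Slc30a10) were at 0 in OFBI and at most 0.378 CPM in Naive. The kidney glucose reabsorption transporter Slc5a2 (SGLT2), the inositol and monocarboxylate carriers Slc5a11 and Slc5a12, the synaptic vesicle exporter Slc30a3 and the exporter of insulin granules Slc30a8 had no count in any of the 6 libraries.

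Across the whole data set the log2 fold change was higher in genes of higher GC content. Over all tested genes above the floor its median was -0.64 at a GC content up to 40%, -0.50 from 40% to 44%, -0.05 from 52% to 56%, 0.22 from 56% to 60% and 0.70 above 60%. Slc5a8, at a GC content of 40.5%, stood at -1.39, below the median of its range, and Slc39a8 at -0.70 stood close to the median of its own. Slc2a8, at 60.8%, stood at 0.69, beside 0.70. Slc39a4 at -2.32 stood far below the 0.22 of its range. With the trend removed, 17 of the 30 transporters were below 0 in place of 21, and their median was -0.02, beside 0.16 for all genes.

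**Figure D5:**
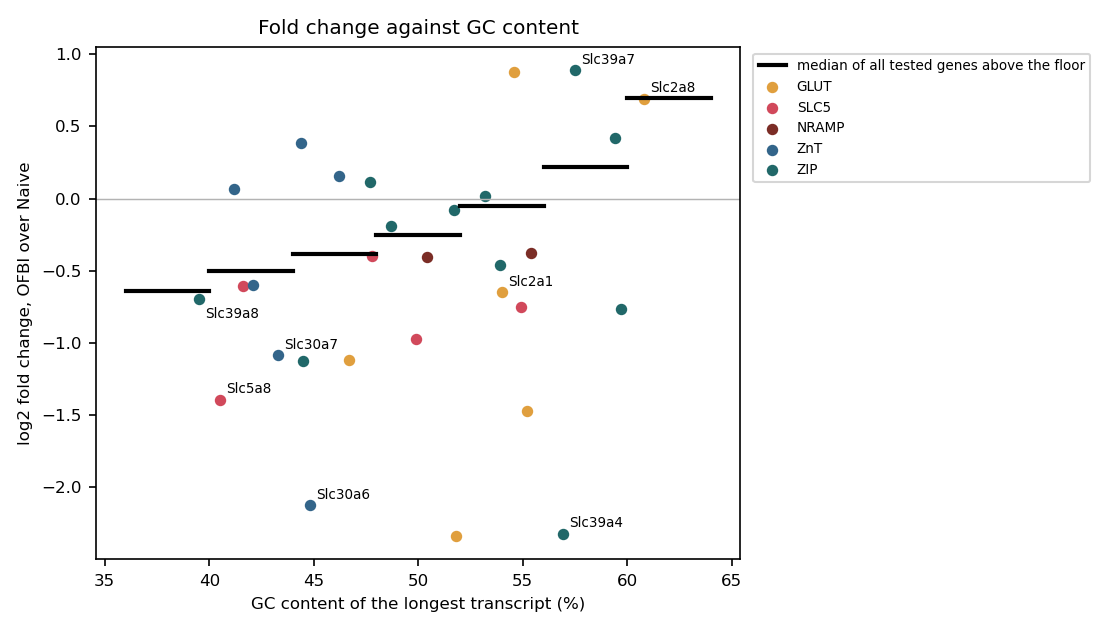
Log2 fold change of OFBI over Naive of the 30 transporters above the floor against the GC content of the longest annotated transcript in percent, coloured by family. Black bars are medians of all tested genes above the floor in 7 ranges of GC content, rising from -0.64 to 0.70. Slc39a8 lies near its bar and Slc5a8 below its own.

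Genes that handle the same substrates inside the cell were read from lists drawn up beside the families. The iron, zinc and glucose lists held 16 called genes with edgeR. They held 5 with the GC and length trend removed and 0 without any 1 Naive replicate. The changes below are from the edgeR fit with all libraries and no trend removed. Of the zinc list, 3 of 10 tested genes fell and the other 7 did not pass, and the median change of the list was -0.80 on the log2 scale. The metallothioneins Mt1 and Mt2, which bind zinc and are transcribed under the zinc sensor Mtf1, were the most abundant with Car3. Mt2 was at 55.0, 31.1 and 29.9 CPM in OFBI and 115, 134 and 106 CPM in Naive, without overlap, and fell by 1.59 on the log2 scale (SE 0.27, edgeR adjusted p = 0.0152). Mt1 was at 53.5, 58.9 and 50.5 CPM in OFBI and 73.0, 89.9 and 82.5 CPM in Naive and fell by 0.59 (SE 0.17, edgeR adjusted p = 0.05 after rounding). Car3, a zinc-bound carbonic anhydrase, fell by 2.01 (SE 0.38, edgeR adjusted p = 0.0198). Mtf1 itself had a change of 0.19 (SE 0.22, edgeR adjusted p = 0.607).

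Of the iron list, 3 of 32 tested genes rose and 3 fell, with a median change of -0.31 on the log2 scale, in which the changes below are also given. The poly(rC)-binding proteins Pcbp1 and Pcbp2, which bind RNA and also hand iron to ferritin, rose by 1.74 (SE 0.28, edgeR adjusted p = 0.0135) and 2.18 (SE 0.39, edgeR adjusted p = 0.0179). Pcbp2 was at 901, 1386 and 2406 CPM in OFBI and 466, 315 and 255 CPM in Naive. Transferrin (Trf) rose by 1.22 (SE 0.19, edgeR adjusted p = 0.0137), from 34.6 ± 5.24 to 80.5 ± 7.83 CPM (SD, n = 3 each). The haem carriers Slc48a1 and Abcg2 fell by 1.00 (SE 0.21, edgeR adjusted p = 0.0245) and 2.63 (SE 0.41, edgeR adjusted p = 0.0134). The ferric reductase Cybrd1 was at 0 in OFBI and 1.72 CPM in Naive, close to the floor, and was called lower (edgeR adjusted p = 0.0323). The ferritin heavy chain Fth1, the most abundant of the list, was at 606 ± 128 and 719 ± 57.1 CPM and did not pass (edgeR adjusted p = 0.379), nor did the transferrin receptor Tfrc (log2 fold change 0.40, edgeR adjusted p = 0.544).

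Of the glucose list, 3 of 32 tested genes rose and 4 fell, with a median change of -0.16 on the log2 scale. The hexokinase Hk1, which traps glucose in the cell, rose by 0.66 (SE 0.18, edgeR adjusted p = 0.0486). The insulin signalling kinase Akt2 rose by 1.12 (SE 0.30, edgeR adjusted p = 0.0423) and Aspscr1 (TUG), which tethers GLUT4 vesicles, by 1.05 (SE 0.18, edgeR adjusted p = 0.015). Lnpep, the aminopeptidase of GLUT4 vesicles, fell by 0.87 (SE 0.14, edgeR adjusted p = 0.0145), and the glucose-6-phosphatase G6pc3 by 1.15 (SE 0.31, edgeR adjusted p = 0.0445). Gfpt2 was called lower from a Naive level under the floor, 1.41 CPM. The most abundant genes of the list, Igf1r and Gfpt1, had changes of 0.04 (edgeR adjusted p = 0.904) and -0.81 (edgeR adjusted p = 0.0782). Of 12 tested genes on the list for the other Slc5a substrates, 1 rose: Cdipt, which makes phosphatidylinositol, by 1.20 (SE 0.19, edgeR adjusted p = 0.0139). The 8.41% higher and 10.4% lower of all tested genes are the background of these counts too.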

How the data were processed

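RNA of 6 cornea libraries was analysed, 3 per group. Each deposited table holds a library's estimated counts by gene symbol, in whole numbers and unscaled. The build GRCm38 and the tools HISAT2, StringTie, FastQC and DESeq2 are named in the submitters' processing notes, without order or role. The annotation release is not given in the sources used here. Multiples of 4 made up 39.4% to 50.5% of values from 1 to 40, from which about 4 counts per fragment were inferred.

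Rows sharing a symbol were summed, and 26 rows with date-like names were kept. Genes kept by filterByExpr were tested with edgeR 4.0.16 (R 4.3.3; TMM, quasi-likelihood, group as the only term, two-sided, Benjamini-Hochberg over all tested genes, threshold 0.05). The SE is the log2 fold change divided by the square root of F. Coordinates, GC content and length come from GENCODE release M21 on GRCm38, matched by symbol for 50 of 50 transporters. The procedure was tested on simulated data. These held no GC trend and no repeated counts per fragment, and only genes well above the floor were changed, so the simulation does not bear on those points.

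The transporters and lists were chosen with earlier results of these data known. The naming rule took each called transporter, the 3 above the floor with the highest Naive level per kilobase in Slc2a, Slc5a, Slc30a and Slc39a, those of Slc11a and Slc40a, and per list the called genes and the 2 with the highest Naive CPM, of which 1 is not reported here. The alternatives were DESeq2 1.42.0, limma-voom (limma 3.58.1), other scalings, filters, thresholds and floors, a replicate block, division by 4, thinning, removal of a GC and length trend (mgcv 1.9.3) and leaving out each library. Replicates in a group differed by more than sampling noise.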

Additional observations from a re-analysis of the deposited data

How the results depend on the processing

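Counts are from edgeR unless another tool is named. The number of transporters called lower was 6, and 3 without a filter, 3 at 1 CPM in 3 libraries, 1 with the replicate block, 0 at a threshold of 0.01, 2 and 1 with the Naive or all libraries thinned, 1 with the GC and length trend removed, and 0 to 8 when leaving out 1 library. For those above the floor it was 2, and 5 with DESeq2, 4 with limma-voom, 4 with library size only, 1 with the block, 0 at 0.01, 5 with counts divided by 4, 1 with all libraries thinned, 0 with the trend removed, and 0 to 7 when leaving out 1 library. Transporters called higher numbered 0, and 1 (Slc39a7) without OFBI replicate 3, a range of 0 to 1. The iron, zinc and glucose lists held 16 called genes, and 10 without a filter, 7 with the block, 0 at 0.01, 10 with the Naive libraries thinned, 5 with the trend removed, and 0 to 23 when leaving out 1 library. Transporters at or under the floor, here with the 5 without any count included, numbered 20, and 13 with 1 count per fragment, and 19 to 22 when leaving out 1 library.

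Without any 1 Naive replicate, edgeR called no transporter, and of all genes 97 higher and 9 lower, none, and 96 higher and 8 lower, while DESeq2 called 2, 2 and 2 transporters and limma-voom 4, 3 and 3, with Slc5a8 and Slc39a8 below 0.05 each time. Without OFBI replicate 1, limma-voom gave them 0.106 and 0.15, without OFBI replicate 2 0.0564 and 0.0566, and without OFBI replicate 3 0.0205 and 0.0502, while DESeq2 kept both below 0.05. Leaving out 1 library, DESeq2 and limma-voom called 2 to 10 transporters lower, 2 to 8 of them above the floor, and 0 to 2 higher. Slc5a8 was below 0 in every setting run.

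Signs differed as follows. With the GC and length trend removed, Slc5a1 was at 0.10, Slc39a6 at 0.42, Slc39a8 at 0.24 and Slc39a14 at 0.031. With limma-voom, Slc30a1 was at -0.20, Slc39a1 at -0.0061 and Slc39a7 at -0.68. With library size only, which moved the median of all genes from -0.20 to -0.40 and the share of called genes that were higher from 44.8% to 29.8%, Slc30a1 was at -0.057, Slc30a4 at -0.14, Slc39a1 at -0.19 and Slc39a9 at -0.093. Slc39a14 was at 0.20 with counts divided by 4 and 0.11 with the Naive libraries thinned. Leaving out 1 library, the lowest and highest values were -2.09 and 0.13 for Slc11a1, -0.36 and 0.41 for Slc30a1, -0.065 and 0.18 for Slc30a4, -0.11 and 0.12 for Slc39a1, -0.18 and 0.42 for Slc39a9 and -0.36 and 0.38 for Slc39a14. The cause was not tested.

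The replicate numbers share no stated source. Deviations of same-numbered libraries had correlations of -0.04, -0.05 and 0.02 over 9100 genes, beside -0.02 to 0.08 for differently numbered ones. With 3 libraries per group and shallow OFBI libraries, this check shows no sign of pairing but cannot exclude it. The replicate block left Slc5a8 as the 1 transporter called.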
